A study of Mus musculus with 2 samples.

Results

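The genes described here encode the cannabinoid receptors and the enzymes that make and break down their ligands: Cnr1, Cnr2, Dagla, Daglb, Mgll, Faah and Napepld. These 7 genes, of 21938 protein-coding genes of the GENCODE M21 annotation, were chosen by name, by a rule that uses no measured value, though with earlier results of these data known. For each gene the window was the gene body plus 50 kb on either side on the mouse assembly mm10, and the promoter was the sequence within 1 kb of any annotated transcription start site of the gene.

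Accessible chromatin was measured with DNase-seq, an assay in which DNase I cuts nuclear DNA where proteins leave it exposed. The cells were MN1, a mouse line described as immortalized, from strain B6NCrl. The series holds 1 group of 2 biological replicates, each with 1 library, and has no second condition, so nothing could be tested between conditions. Tissue, treatment, age and sex of the line are not known from the labels. They name a pair of sequencing instruments for replicate 2 and none for replicate 1. What was measured is the position of accessible DNA, not the amount of any transcript or protein.

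Each library came with a list of peaks, 150 bp intervals of highest accessibility, and a list of hotspots, broader enriched regions. Replicate 1 had 170286 peaks on the main chromosomes and replicate 2 had 162691. Hotspots covered 58.8 Mb in replicate 1 and 54.1 Mb in replicate 2. The peak score runs from 1 to 150 in whole numbers with no stated normalization, and its median was 49 in replicate 1 and 39 in replicate 2. Each score is therefore given as a percentile, the share of peaks in the same list with a score at or below it. A peak is called shared where it overlaps a peak of the other library by at least 1 bp, counted on the list of replicate 1 unless stated. Over all peaks, 67.1% of those of replicate 1 were shared with replicate 2, and 70.2% of those of replicate 2 with replicate 1. Because the labels name no cell type for MN1, marker promoters were read first. Of 8 motor neuron genes, both libraries had a promoter peak at 6, and Mnx1 and Slc5a7 had none in either. The corresponding counts were 1 of 6 for microglia and macrophages, 1 of 6 for B cells, 1 of 5 for astrocytes and 1 of 4 for GABAergic interneurons. Over all protein-coding genes the share was 59.2%, and 6 of 8 is 75%, so the motor neuron count is not far from it. The markers with a peak in both libraries in the other 4 lists were Cx3cr1, Pax5, Gfap and Gad1.

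Endocannabinoids are lipids made on demand from membrane phospholipids. The best known are 2-arachidonoylglycerol, which the diacylglycerol lipases DAGL alpha (Dagla) and DAGL beta (Daglb) release from diacylglycerol, and anandamide, which the phospholipase NAPE-PLD (Napepld) can release from an N-acyl phosphatidylethanolamine. In the nervous system they are typically released by the postsynaptic neuron and act on the presynaptic receptor CB1 (Cnr1), while CB2 (Cnr2) is best known from immune cells. Monoacylglycerol lipase (Mgll) hydrolyses 2-arachidonoylglycerol, and fatty acid amide hydrolase (Faah) hydrolyses anandamide.

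The sequences of accessible DNA on which the following results turn are shown here so that the promoters and the strongest intronic peaks can be compared. They are parts of shared peaks of replicate 1 on mm10, read on the plus strand, and were limited to stretches of at least 60 bases outside the annotated exons of these genes. Capitals mark matches to a short motif on either strand. An SP/KLF match has the letters GGGCGG. The site of GATA factors was matched as GATAAG. A CRE, the site of CREB family factors, was matched as TGACGTCA. The NFY motif was read as CCAAT. For ETS family factors the letters searched were CCGGAAG. The YY1 motif was AANATGGC, with N for any base. The best promoter peaks of Daglb, Mgll, Faah and Napepld had fewer than 60 bases outside exons, and so had the best promoter peak of Cnr1. For Cnr1, Daglb and Napepld the next shared promoter peak is shown in its place.
Cnr1 promoter, chr4:33924196-33924263: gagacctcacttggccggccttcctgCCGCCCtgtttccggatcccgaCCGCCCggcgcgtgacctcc
Cnr2 promoter, chr4:135912376-135912525: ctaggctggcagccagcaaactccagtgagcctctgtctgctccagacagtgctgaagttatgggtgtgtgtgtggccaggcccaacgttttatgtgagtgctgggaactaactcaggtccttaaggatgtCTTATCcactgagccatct
Daglb promoter, chr5:143465216-143465365: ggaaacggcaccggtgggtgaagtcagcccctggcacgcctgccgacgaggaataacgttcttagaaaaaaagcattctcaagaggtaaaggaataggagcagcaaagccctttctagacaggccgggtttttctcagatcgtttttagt
Napepld promoter, chr5:21701776-21701925: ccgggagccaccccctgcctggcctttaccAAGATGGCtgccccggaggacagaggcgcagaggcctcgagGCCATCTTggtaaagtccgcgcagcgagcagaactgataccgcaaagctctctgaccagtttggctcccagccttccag
Cnr2 intron, chr4:135898516-135898665: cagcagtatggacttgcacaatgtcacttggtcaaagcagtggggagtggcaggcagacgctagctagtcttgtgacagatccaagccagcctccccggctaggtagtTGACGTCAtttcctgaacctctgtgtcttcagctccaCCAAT
Dagla intron, chr19:10272816-10272965: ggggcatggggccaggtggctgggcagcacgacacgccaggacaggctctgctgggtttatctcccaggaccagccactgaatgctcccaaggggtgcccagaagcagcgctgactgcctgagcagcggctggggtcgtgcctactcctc
Daglb intron, chr5:143470936-143471085: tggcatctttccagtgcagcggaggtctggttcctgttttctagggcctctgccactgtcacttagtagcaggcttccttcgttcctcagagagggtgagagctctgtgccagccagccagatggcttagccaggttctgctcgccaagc
Mgll intron, chr6:88759936-88760085: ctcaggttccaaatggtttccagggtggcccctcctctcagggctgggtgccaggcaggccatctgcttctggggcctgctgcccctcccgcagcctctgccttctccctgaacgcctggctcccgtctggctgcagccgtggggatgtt
Faah intron, chr4:115984236-115984385: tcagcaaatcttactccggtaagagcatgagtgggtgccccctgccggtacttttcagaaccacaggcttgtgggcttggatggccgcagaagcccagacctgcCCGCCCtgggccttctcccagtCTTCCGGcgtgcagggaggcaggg
The Cnr1 promoter stretch holds 8 CG dinucleotides in 68 bases, and the Cnr2 promoter stretch holds 1 in 150 bases. Every intronic stretch shown holds between 3 and 6.

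Each of the 7 genes had its promoter called in both libraries, as did 59.2% of all protein-coding genes. A promoter peak in 1 library only was found for none of the 7, beside 3.55% of all protein-coding genes. The genes differed in how their best promoter peak ranked. Napepld, Daglb and Cnr1 were above the 93rd percentile in both libraries, Dagla and Faah lay between 84.2 and 92.2, and Mgll and Cnr2 were lowest. The median best promoter peak of the 7 genes was at percentile 84.2 in replicate 1 and 92.2 in replicate 2. Over all genes with a promoter peak in both libraries these medians were 95.6 and 95.5.

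**Figure D1:**
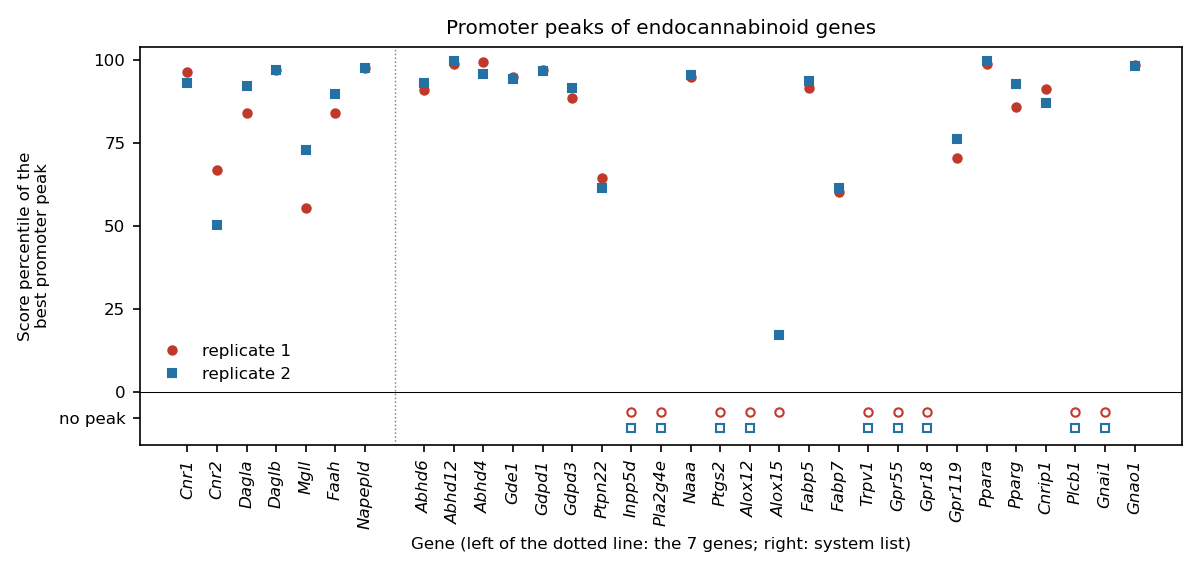
Score percentile of the best promoter peak (vertical axis, percent of the same list at or below it) in replicate 1 (circles) and replicate 2 (squares), for the 7 genes left of the dotted line and 25 other endocannabinoid system genes right of it. Open symbols below 0 mark genes with no promoter peak in that library; the 7 genes have none there, and Cnr2 and Mgll are lowest among them.

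The promoter sequence classes of the 7 genes also differed. The CpG observed/expected ratio within 500 bp of the outermost start site was 0.946 for Mgll, 0.829 for Cnr1, 0.815 for Napepld, 0.776 for Dagla, 0.769 for Daglb and 0.728 for Faah, but 0.204 for Cnr2. Between 84.7% and 91.8% of genes in the CpG deciles of the first 6 had a promoter peak in both libraries, and 28.8% in the decile of Cnr2. The marker counts given earlier take no account of this ratio. Its percentile among all protein-coding genes ran from 14.9 to 79.0 over the motor neuron markers. It ran from 17.0 to 36.2 for microglia and macrophages and from 13.9 to 63.0 for B cells. For astrocytes the range was 26.8 to 50.1, and for GABAergic interneurons 28.4 to 73.9.

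Cnr1 (chr4:33924593-33948831, plus strand) encodes CB1, a receptor coupled to inhibitory G proteins. Its start region was accessible in both libraries, and little else in its window was. The best promoter peak had a score of 132 in replicate 1 (percentile 96.4) and 118 in replicate 2 (percentile 93.2), over the annotated start at 33924632. A second peak, part of which is the Cnr1 sequence shown above with its pair of SP/KLF matches, was centred 322 bp upstream of the outermost start and stood at percentiles 93.1 and 92.2. Both lay in the widest promoter hotspot of the 7 genes, 2851 bp in replicate 1 and 2385 bp in replicate 2. Among genes with a promoter peak in both libraries, Cnr1 was at percentile 57.7 in replicate 1 and 36.3 in replicate 2, and within its own CpG decile at 43.8 and 18.0.

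The Cnr1 window was sparse outside the promoter, and over the whole window, promoter included, the libraries matched poorly. Replicate 1 had 16 peaks in the window, of which 6 were shared, or 37.5% (95% Wilson interval 18.5% to 61.4%). Intervals here and below treat peaks as independent, though some overlap or lie in the same hotspot. Replicate 2 had 10 peaks in the window, of which 5 were shared, or 50% (23.7% to 76.3%). Of 14298 genes with at least 10 window peaks in replicate 1, 2.15% had a share of 37.5% or lower in that library, and the median was 73.3%. Most unshared peaks there were weak, with a median percentile of 16.2 in replicate 1 and 29.9 in replicate 2. Peaks of the same score deciles anywhere in the genome were shared at 48.9% in replicate 1 and 63.7% in replicate 2. Upstream of the start, each library called a further promoter peak inside the other's hotspot without overlapping the other's peak: replicate 1 at 33923656-33923805 (percentile 70.6) and replicate 2 at 33923876-33924025 (percentile 78.3). The remaining shared peaks were 1 near the downstream start at 33926202 (percentiles 20.6 and 15.1), 1 intergenic peak 8.68 kb upstream of the outermost start (53.2 and 45.2), and 2 overlapping calls in an exon near the end of the gene (22.3 and 24.2 in replicate 1) that met the same peak of replicate 2 (11.1). No intronic peak of Cnr1 was shared.

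Cnr2 (chr4:135895394-135920207, plus strand) encodes CB2. It has 2 annotated start sites, and no peak or hotspot of either library lay within 1 kb of the upstream one, 135895394. The promoter call came from the downstream start, 135911818, where a peak began 558 bp downstream of the start in replicate 1 and 518 bp in replicate 2. The replicate 1 peak lay wholly outside the annotated exons, inside the gene, and no peak overlapped either start. That peak had a score of 66 (percentile 67.0) in replicate 1 and 39 (percentile 50.4) in replicate 2. Its sequence in replicate 1, shown above, holds a single GATA match and 1 CG. The GATA match lies outside the replicate 2 peak, 135912336-135912485. With promoters limited to 500 bp, or to the outermost start site, Cnr2 had no promoter peak. Among genes with a promoter peak in both libraries it ranked at percentile 9.18 in replicate 1 and 4.37 in replicate 2. Within its own CpG decile, among 631 such genes, it ranked at 30.6 and 16.2.

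More peaks lay in the Cnr2 gene beyond 1 kb of its starts than within that distance. An intronic peak 3.20 kb downstream of the outermost start stood at percentile 94.0 in replicate 1 and 88.0 in replicate 2, above the promoter peak in both. Its sequence holds the full CRE palindrome TGACGTCA and an NFY match. CRE matches occurred in 0.492% of all shared distal peaks. Another intronic peak, at 135912956-135913105, stood at percentiles 88.0 and 75.2, and an intronic peak at 135906736-135906885 at 61.2 and 29.9. The window as a whole held 35 shared peaks, or 0.280 per kb, at percentile 95.7 of all protein-coding genes. Of these, 18 lay at the promoters of neighbours, among them Srsf10, Pnrc2, Fuca1 and Lypla2, and 4 in the gene itself. The count for the window therefore describes mostly the neighbours.

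**Figure D2:**
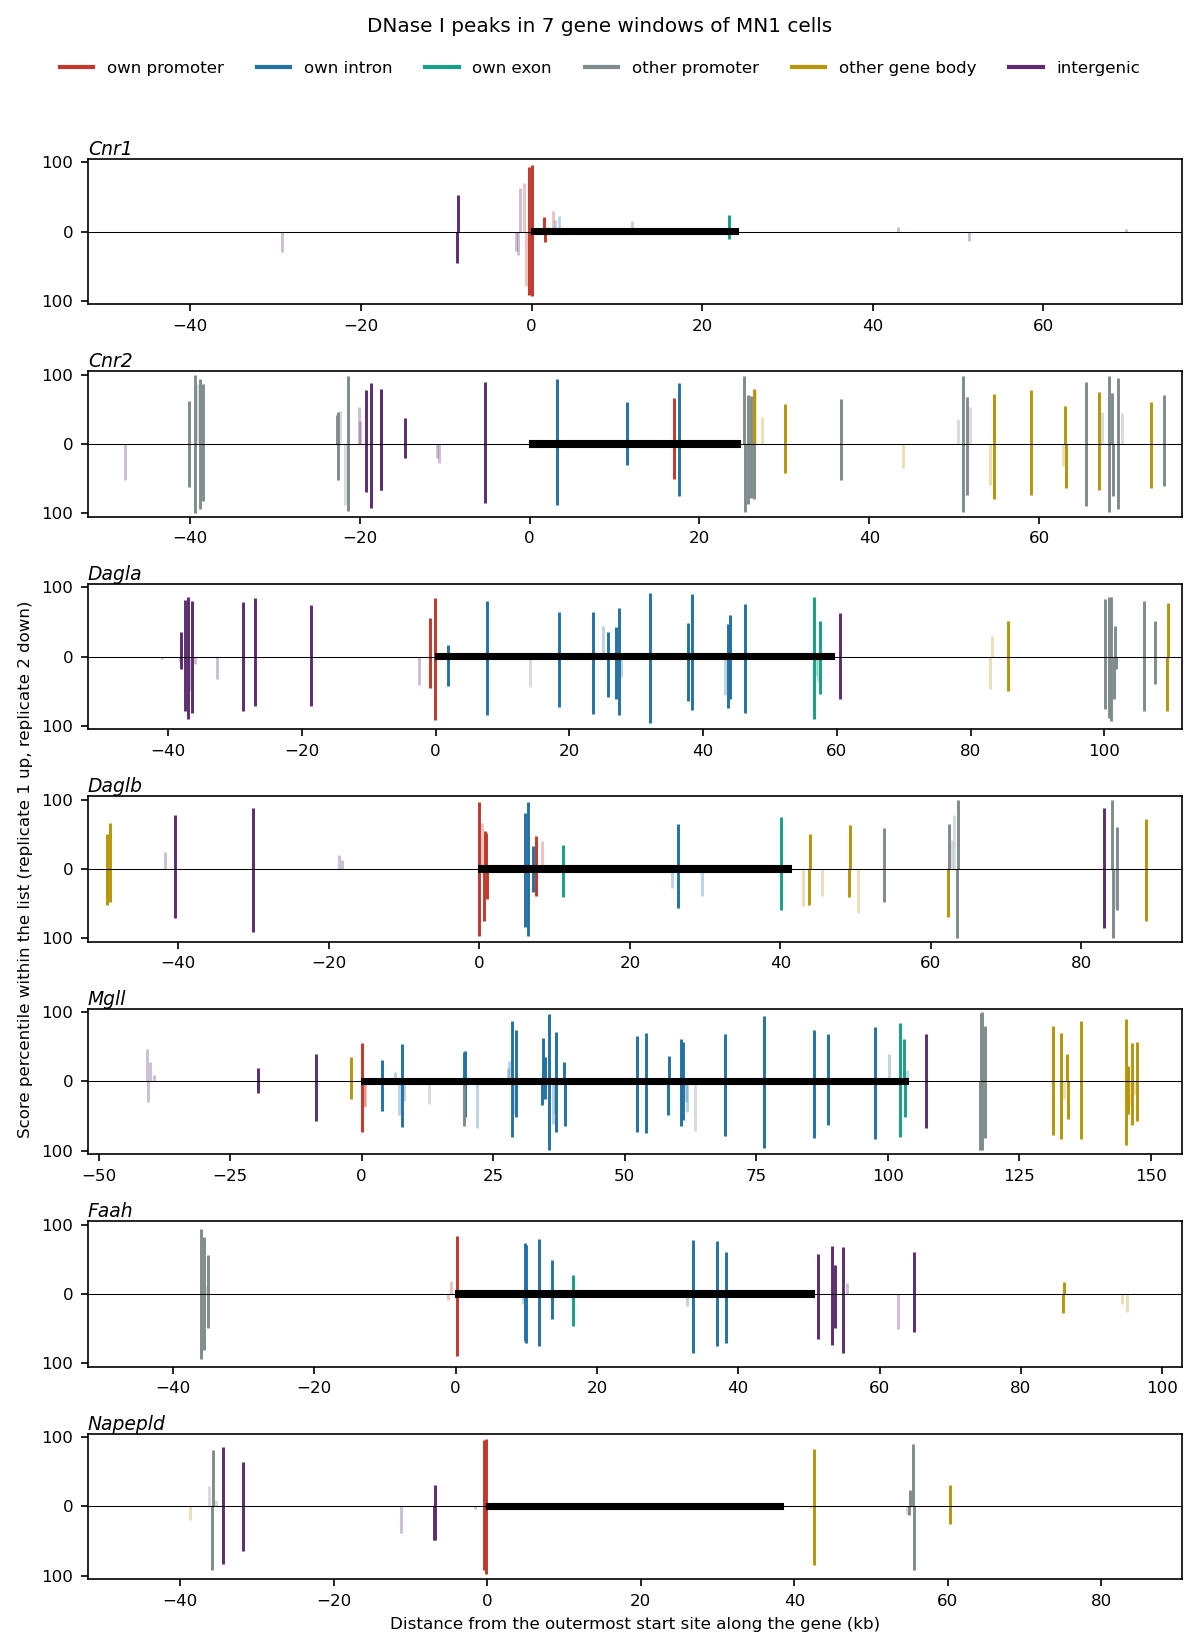
Peaks in the 7 windows by distance from the outermost start site along the gene (horizontal axis, kb), with the score percentile of replicate 1 upward and of replicate 2 downward; colours give the class of the peak, faded lines are unshared peaks, and the black bar is the gene body. Mgll and Dagla carry many shared intronic peaks along the gene, Napepld has none in its gene body, and Cnr1 has its strong peaks at the start.

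Dagla (chr19:10245265-10304877, minus strand) encodes DAGL alpha, the main source of 2-arachidonoylglycerol in the adult brain. It combined a promoter peak of low rank among accessible promoters with a gene body rich in distal peaks, meaning peaks outside the 1 kb promoters of all genes. The promoter peak had a score of 95 (percentile 84.2) in replicate 1 and 114 (percentile 92.2) in replicate 2. It was centred 94 bp upstream of the start in replicate 1 and 54 bp upstream in replicate 2. A weaker promoter peak at 10305696-10305845 (percentiles 55.3 and 45.2) held a CRE match. Of the 14 shared peaks at the 7 genes' own promoters 1 held a CRE match, beside 1.39% of all shared promoter peaks. Among genes with a promoter peak in both libraries, Dagla ranked at percentile 17.9 in replicate 1 and 31.8 in replicate 2, and within its own CpG decile at 8.69 and 19.3.

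In the Dagla gene body 15 shared distal peaks were found. The median of 2120 genes of like length (within 25%) was 2, and 26.4% of them had none. Dagla stood at percentile 99.1 of them. The strongest of its 15 peaks, 32.0 kb into the gene and shown above without any motif match, stood at percentiles 91.4 and 96.2. It exceeded the promoter peak in both libraries, and it was the only distal peak of the gene body to do so. Next in the order of replicate 1 came an intronic peak at 10266536-10266685 (89.8 and 77.3) and an exonic peak at 10248296-10248445 (86.4 and 90.2). In replicate 2 the exonic peak ranked above the intronic one. A group of intergenic peaks upstream, at 36.5 to 37.4 kb before the start, included 10341916-10342065 at percentiles 86.0 and 89.6. In the window 33 of 35 peaks of replicate 1 were shared, or 94.3% (81.4% to 98.4%), the highest share of the 7 genes in that library. From the side of replicate 2 it was 34 of 46, or 73.9% (59.7% to 84.4%). There the shares of Cnr2 (82.9%), Daglb (80%) and Faah (75%) were higher, and those of Cnr1, Mgll and Napepld lower. Shared peaks at promoters of neighbours numbered 6, at Gm10143 and at Fen1 and Tmem258.

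Daglb (chr5:143464584-143505942, plus strand) encodes DAGL beta, the related enzyme known from microglia and macrophages. Its promoter peak was among the strongest of the group, with a score of 134 (percentile 96.9) in replicate 1 and 133 (percentile 97.0) in replicate 2. It spans the start site and in replicate 1 holds an NRF1 match (GCGCATGCG) on each strand, an ETS match and an E-box (CAGCTG). The ETS match and the E-box lie outside the replicate 2 peak, 143464496-143464645. The hotspot around the promoter peak was 1679 bp wide in replicate 1 and 1484 bp in replicate 2. The second shared promoter peak, shown above, stood at percentiles 54.3 and 75.7 and held no motif match. In replicate 1 an unshared promoter peak at 143464856-143465005 ranked above it, at percentile 67.0, and lay in a hotspot of replicate 2.

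An intronic peak of Daglb, 6.43 kb downstream of the start, had the same scores as the promoter peak, 134 in replicate 1 and 133 in replicate 2. It lies 1906 bp upstream of the start of an annotated retained-intron transcript and is shown above. It held no match to any of the 15 motifs searched. A neighbouring intronic peak at 143470616-143470765 stood at percentiles 81.4 and 83.3. The gene body held 6 shared distal peaks, at percentile 93.6 of 2620 genes of like length, of which 34.6% had none. In the window 23 of 30 peaks of replicate 1 (76.7%) and 24 of 30 of replicate 2 (80%) were shared, and 5 shared peaks lay at the promoters of Rac1 and Fam220a.

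Napepld (chr5:21662901-21701396, minus strand) encodes NAPE-PLD. It had the highest promoter rank of the 7 genes and no distal peak in its gene body in either library. The best promoter peak had a score of 137 (percentile 97.7) in replicate 1 and 136 (percentile 97.8) in replicate 2, at the same position in both lists, centred 95 bp upstream of the start. It holds 5 SP/KLF matches and a YY1 match. The second peak, shown above, was centred 455 bp upstream in replicate 1 and stood at percentiles 95.4 and 91.4. Its sequence holds 2 YY1 matches in opposite orientation. YY1 matches occurred in 3.33% of all shared promoter peaks, and among the 14 shared peaks at the 7 genes' own promoters only these 2 of Napepld held one.

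The empty gene body of Napepld is not rare. Of 2707 genes of like length, 36.5% also had no shared distal peak, and the median was 1. The window held 12 peaks in replicate 1, 10 of them shared, and 16 in replicate 2, 11 of them shared. Outside the promoter, the strongest shared peaks were at the promoter shared by Armc10 and Fbxl13 (90.4 and 92.2), in an intergenic stretch 34.4 kb upstream (85.1 and 83.3), in the body of a neighbouring gene at 21658796-21658945 (82.8 and 84.5) and at the promoter of Pmpcb (81.9 and 91.4).

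Mgll (chr6:88724412-88828360, plus strand) encodes monoacylglycerol lipase, which ends 2-arachidonoylglycerol signalling at synapses. Its promoter was weak for its sequence class, and its gene body, the longest of the 7, held the largest number of shared distal peaks but not the most per length. The promoter peak, at 88724436-88724585 in both lists, had a score of 53 (percentile 55.3) in replicate 1 and 66 (percentile 72.9) in replicate 2. The hotspot there was 418 bp wide with a −log10 q of 4.35 in replicate 1, and 497 bp wide with the capped value of 100 in replicate 2. Mgll has the highest CpG ratio of the 7 genes, and among 2015 genes of its CpG decile with a promoter peak in both libraries its peak ranked at percentile 1.34 in replicate 1 and 2.13 in replicate 2. The median best peak of that decile was at percentile 97.4 in replicate 1 and 97.8 in replicate 2.

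In the gene body of Mgll 23 shared distal peaks were found, or 2.21 per 10 kb where Dagla had 2.52, beside a median of 3 peaks in 1493 genes of like length, at percentile 99.5 of them. Of these, 8 exceeded the promoter peak in both libraries. The strongest, shown above, lay 35.6 kb downstream of the outermost start and stood at percentile 96.9 in replicate 1 and 98.5 in replicate 2, with a score of 134 and 139. It held no motif match, and its hotspot was 1339 bp wide in replicate 1 and 1429 bp in replicate 2. The next, at 88800856-88801005, stood at percentiles 94.6 and 95.7. Further intronic peaks lay at 88752976-88753125 (86.8 and 79.8) and 88821976-88822125 (78.7 and 83.7). An exonic peak at 88826696-88826845 (84.7 and 79.8) held an NFI match and an E-box.

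Of the 48 window peaks of replicate 1 at Mgll, 40 were shared, or 83.3% (70.4% to 91.3%), and 40 of 56 of replicate 2, or 71.4% (58.5% to 81.6%). Mgll had the most shared peaks of the 7 genes, 3 of them at the promoters of Abtb1, Gm15612 and Podxl2. Protein-coding genes were ranked by likeness to it in the percentile of the best promoter peak and of the number of window peaks in each library. The nearest were H1foo (summed difference 9.27 percentile points), Chd5 (10.01) and Gcgr (10.1). Likeness here is over 4 values from 2 libraries, and H1foo lies on the same chromosome as Mgll.

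Faah (chr4:115967145-116017926, minus strand) encodes the enzyme that hydrolyses anandamide. Its promoter peak had a score of 95 (percentile 84.2) in replicate 1 and 106 (percentile 89.9) in replicate 2. Its centre lay 175 bp inside the gene in replicate 1 and 195 bp in replicate 2, at a group of annotated downstream starts. Among genes with a promoter peak in both libraries Faah ranked at percentile 17.9 in replicate 1 and 25.03 in replicate 2, and within its own CpG decile at 10.4 and 17.4. Each library called a second promoter peak that the other lacked, and these were weak, at percentile 18.8 in replicate 1 and 9.33 in replicate 2.

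The gene body of Faah held 8 shared distal peaks, at percentile 95.01 of 2343 genes of like length, of which 29.8% had none. None of the 8 exceeded the promoter peak in both libraries. The strongest by mean rank, shown above, lay 33.6 kb into the gene at percentiles 78.1 and 84.8 and held an ETS and an SP/KLF match. An intronic peak at 116006016-116006165 stood at 79.2 and 75.7 and held an NFI match and an AP-1 match (TGAGTCA). A CTCF match lay in an intronic peak at 116004176-116004325, of lower rank (48.4 and 35.6). In the window 18 of 21 peaks of replicate 1 (85.7%) and 18 of 24 of replicate 2 (75%) were shared. Of the shared peaks, 3 lay at the promoter of the neighbour Nsun4.

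**Figure D3:**
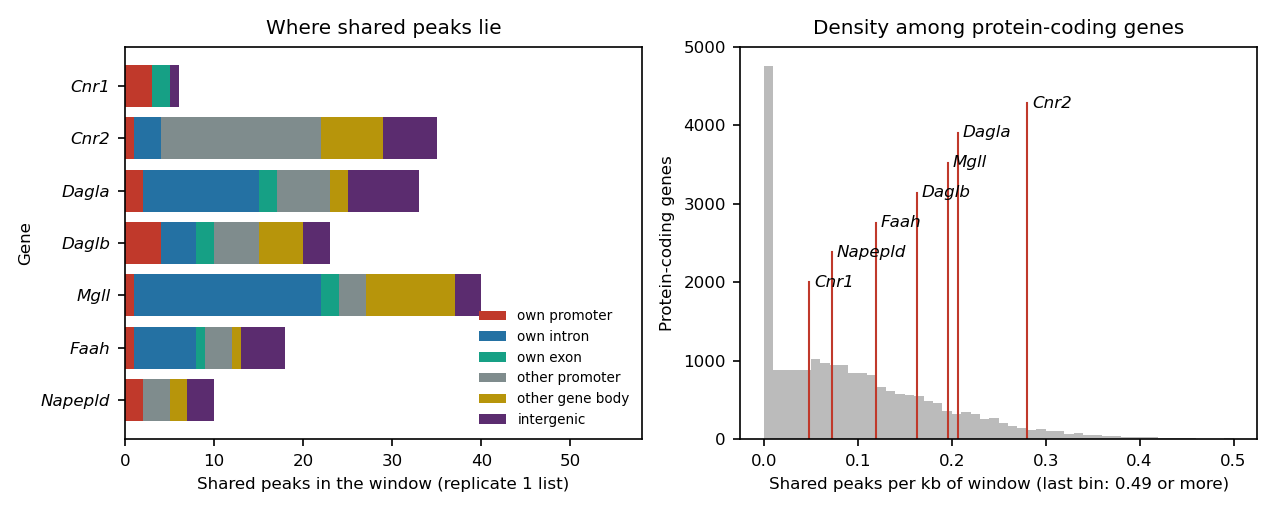
Left, shared peaks of each window by class (horizontal axis, number of peaks in the list of replicate 1); right, number of protein-coding genes (vertical axis) by shared peaks per kb of window, with the 7 genes marked by red lines whose height has no meaning. Intronic peaks make up most of the Mgll bar, neighbours' promoters most of the Cnr2 bar, and the genes range from 0.0483 per kb (Cnr1) to 0.280 per kb (Cnr2).

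Over the 7 windows there were 165 shared peaks. Of these, 48 (29.1%) lay in introns of the 7 genes, 38 at promoters of other genes, 29 in intergenic sequence, 27 in bodies of other genes, 14 at the genes' own promoters and 9 in their exons. The number per kb was 0.0483 for Cnr1, 0.0722 for Napepld, 0.119 for Faah, 0.163 for Daglb, 0.196 for Mgll, 0.207 for Dagla and 0.280 for Cnr2. The median of all protein-coding genes was 0.0778. Cnr1 and Napepld were therefore below that median and the other 5 above it. Hotspots covered 76.0 kb of the windows in replicate 1 and 80.7 kb in replicate 2, of 1043 kb in all.

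Replicate 1 had 207 peaks in the windows, of which 79.7% (95% Wilson interval 73.7% to 84.6%, counting error only) were shared, and replicate 2 had 223, of which 74.4% were shared. Peaks of the same score deciles anywhere in the genome were shared at 77.1% in replicate 1 and 78.1% in replicate 2. Unshared peaks were the weaker ones, with a median percentile of 29.7 in replicate 1 and 33.8 in replicate 2, against 69.8 and 71.1 for shared peaks. Of 42 unshared peaks of replicate 1, 13 lay in a hotspot of replicate 2, and of 57 of replicate 2, 14 lay in a hotspot of replicate 1. The median distance between the centres of shared peaks was 20 bp, in intervals of 150 bp whose overlap sets an upper limit to that distance. The percentiles of the 165 shared peaks had a Pearson r of 0.877 and a Spearman rho of 0.899 between the libraries. Only peaks found in both libraries entered, and peaks within a library are not independent replicates. Of the 165, 11 overlapped another peak of their own list. The median difference was 5.80 percentile points, and 12 peaks differed by more than 20 points.

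**Figure D4:**
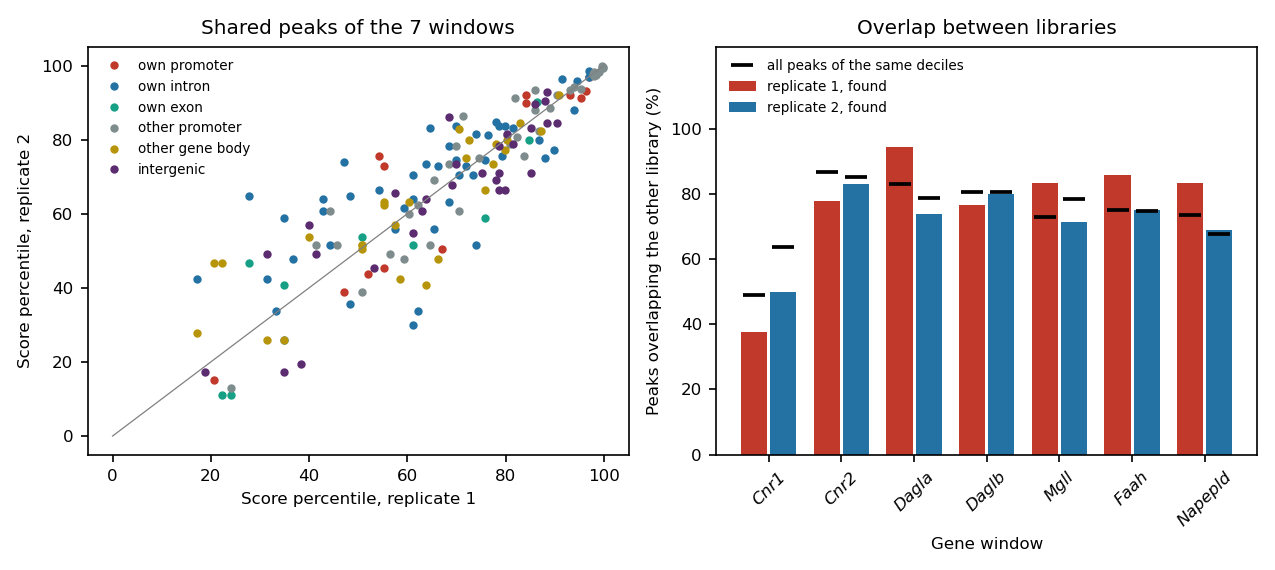
Left, score percentile in replicate 1 (horizontal axis) and replicate 2 (vertical axis) of the 165 shared peaks, coloured by class, with the line of equality; right, percent of window peaks that overlap a peak of the other library (bars) and the percent for all peaks of the same score deciles (black ticks). Strong peaks lie closest to the line, and Cnr1 has the lowest bars, 37.5% and 50%.

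The wider endocannabinoid system was read from a list of 25 other genes for enzymes, binding proteins, receptors and G proteins. Of these, 15 (60%) had a promoter peak in both libraries, near the 59.2% of all protein-coding genes. The 6 with the highest mean percentile were Ppara, a nuclear receptor for fatty acid ethanolamides (98.7 and 99.9), Abhd12 (98.7 and 99.8), a serine hydrolase that can act on 2-arachidonoylglycerol, the G protein gene Gnao1 (98.5 and 98.3), Abhd4 (99.4 and 95.7) and Gdpd1 (96.9 and 96.8), both of alternative routes to N-acyl ethanolamines, and Naaa (95.1 and 95.5), an acid amidase that hydrolyses them. Alox15, a lipoxygenase, had a promoter peak in replicate 2 only, at percentile 17.3. No promoter peak was called in either library for 9 genes: the phosphatase gene Inpp5d, the N-acyltransferase gene Pla2g4e, the oxygenase genes Ptgs2 and Alox12, the channel gene Trpv1, the receptor genes Gpr55 and Gpr18, the phospholipase gene Plcb1 and the G protein gene Gnai1. Gnai1 had the highest CpG ratio of these 9, 1.00 (percentile 98.3 of all protein-coding genes), followed by Plcb1 with 0.741 (percentile 71.2). The windows of Gnai1 and Ptgs2 held 0 shared peaks.

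Motif matches were counted in the 14 own promoter peaks and 113 distal shared peaks of the windows, and describe letters only, not bound factors. SP/KLF matches lay in 3 of the 14 promoter peaks, beside 32.0% of all shared promoter peaks, and YY1 matches in 2. In the distal peaks, CTCF matches lay in 7 (6.19%, beside 5.66% of all shared distal peaks), in every window except that of Cnr1. E-box matches lay in 18 (15.9%, beside 15.8%) and NFY matches in 18 (15.9%, beside 18.5%). NFI matches lay in 6 (5.31%, beside 1.92%), homeodomain matches (TAATTA) in 10 (8.85%, beside 5.07%) and AP-1 matches (TGANTCA) in 11 (9.73%, beside 14.9%). The 6 NFI matches were in the windows of Dagla, Daglb, Mgll and Faah. PHOX2 matches lay in 2 peaks (1.77%, beside 0.313%), upstream of Dagla at 10331836-10331985 and downstream of Faah at 115964136-115964285. A PHOX2 match can contain a homeodomain match. RE1, RFX and NRF1 matches lay in none of the 113, beside 0.00898%, 0.406% and 0.117% of all shared distal peaks. At shares this low, an absence from 113 peaks says nothing about these windows. These shares rest on few peaks, and no test was made.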

How the data were processed

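DNase-seq of 2 libraries of MN1 cells was analysed from peak and hotspot lists on mm10. Each library's list came from that library's filtered alignments alone, per the notes the authors deposited with the files. No source used here names the aligner, the caller or the calling threshold. Deposited peaks carry a score made by the authors, from 1 to 150, without stated normalization, and it was used only for ranks within a list. Deposited hotspots carry a −log10 q-value with a lowest value of 1.30 and a cap of 100. The read depth is unknown, so intervals cover counting error over peaks only. Repeated entries were dropped and the 19 autosomes, X and Y were used.

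The reference was GRCm38, whose chromosome lengths were compared with the files' coordinates, with 93513 start sites of protein-coding genes in GENCODE M21. Analyses used Python 3.11.15, numpy 2.4.6, pandas 2.3.3, scipy 1.17.1 and matplotlib 3.10.9, and the interval code was tested on simulated data. Like length means within 25%. The genes and lists were chosen with earlier results of these data known. Named genes were the 7, neighbours with shared promoter peaks (some names and 1 sequence are not reported here), list genes with a peak in 1 library or none, the 6 highest of the list, and the 3 most like the gene with most shared peaks. Alternatives were another promoter width, start site, score limit, overlap, flank, hotspots for peaks, and leaving out each library.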

Additional observations from a re-analysis of the deposited data

How the results depend on the processing

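All values are counts or lengths from 2 libraries without a test. The 7 genes with a promoter peak in both libraries became 6 with a 500 bp promoter and with the outermost start site only, in both cases without Cnr2, and were 7 with the other settings. Taking 1 library alone gave 7 to 7. For the list of 25 genes the count was 15 to 16 over all settings, and 15 to 16 with 1 library alone. The 165 shared peaks became 90 with a flank of 10 kb, and 1 library alone held 207 to 223 peaks. The overlap share of 79.7% became 86.2% with peaks above the 50th score percentile only. The mean hotspot length of 78.3 kb became 41.8 kb with a flank of 10 kb, 122 kb with 100 kb and 58.8 kb with capped hotspots only, and was 76.0 to 80.7 kb with 1 library alone. Cnr1 had 2 shared peaks above that percentile and 6 in the whole lists. Counts per gene moved with the flank by over 1.5 times at 5 genes. With 10 kb in place of 50 kb, Cnr2 had 10 and not 35, Dagla 18 and not 33, Daglb 12 and not 23, and Napepld 4 and not 10. With 100 kb, Daglb had 37, Faah 33 and not 18, and Napepld 17. Peaks with a motif match numbered 72 of 127, and 56 in the central 100 bp. Of 59 alternative values, 46 were within the set limits of the value reported and 13 were not. No paired analysis was possible because there is 1 group. Read depth is unknown, so an absent peak cannot be told from a region below the calling limit.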
